A study of Mus musculus with 8 samples.

Results

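The genes described here encode tubulins, the enzymes that attach amino acids to tubulin tails, the cofactors that fold tubulin and the stathmins that bind it. Membership follows the gene symbol, and takes in every probe set of the platform table whose symbol belongs to the Tuba, Tubb, Tubd, Tube, Tubg (with Tubgcp), Ttll, Tbca to Tbce or Stmn1 to Stmn4 series, which gave 46 genes, each with 1 probe set, of 19494 named genes on the array. They fell into 8 alpha tubulins, 8 beta tubulins, 9 genes for gamma, delta and epsilon tubulin and the gamma tubulin complex, 12 tubulin ligases of the Ttll family, 5 tubulin chaperones and 4 stathmins.

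Arrays of the Clariom S type were run on alphaTC1.9 cells, a mouse line of glucagon-producing pancreatic alpha cells grown from a tumour. In 4 samples the cells were controls, and in the other 4, here IDE-KD, insulin-degrading enzyme had been knocked down with a small interfering RNA. All cells grew in medium with 16 mM glucose and serum and received no further treatment, per the labels' protocols; no source used here states what the controls received or when cells were taken after knockdown. The design holds a single comparison, knockdown against control, and its p-values measure only the spread between these samples. The labels call the replicates biological and their RNA independent without saying that the cultures of this single line were separate, so that spread may be technical.

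Microtubules are hollow polymers of alpha and beta tubulin dimers that in endocrine cells carry and anchor secretory granules. New tubulin passes through the chaperonin CCT and the cofactors Tbca to Tbce before it forms a dimer, gamma tubulin complexes start new polymers, and stathmins hold dimers back or promote disassembly. The Ttll enzymes add glutamate or glycine chains to the acidic tails of polymerised tubulin, which changes how motors and severing enzymes bind.

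Values are on the log2 scale as deposited (RMA is named in the submitters' processing notes), and a difference of 1 unit is a 2-fold change. Differences are IDE-KD minus control, fitted over all 22142 transcript cluster rows with limma, and adjusted p means Benjamini-Hochberg adjustment over all of these rows. Ide, the targeted gene, read 8.66, 8.62, 8.72 and 8.48 on the control arrays and 7.91, 8.14, 7.92 and 8.05 on the IDE-KD arrays. Every IDE-KD array was below every control array, with a difference of -0.62 (95% confidence interval -0.87 to -0.36), or 1.53-fold lower. The unadjusted limma p was 0.000164, rank 3 of 22142, but the adjusted p was 1.00. The alpha cell hormone gene Gcg read 12.16, 12.06, 11.99 and 12.03 in control and 11.94, 12.17, 12.12 and 12.02 in IDE-KD cells, and its groups covered the same range. Control cells had a mean of 12.06 ± 0.07 and IDE-KD cells one of 12.06 ± 0.10 (SD, n = 4). Of the alpha cell markers measured, 6 of 6 were above the median array control row of 4.52, as were 57.0% of all rows tested. Megakaryocyte markers were above it for 3 of 3 genes and fibroblast markers for 3 of 5. Markers of beta, delta, PP and epsilon cells were above it for 3 of 8, and immune, endothelial and exocrine markers for 0 of 7. Being above this row thus does not set alpha cell markers apart. Multiciliated cell markers were above that row for 0 of 6 genes, male germ cell markers for 2 of 6 and neuron markers for 4 of 8, with Neurod6, Nefl and Nefm high and Rbfox3 low. The higher bar of 6.87, the 95th percentile of the negative-control rows, was passed by 4 of 6 alpha cell markers and 3 of 8 neuron markers. No marker of the other lists passed it, where 26.1% of all rows did. Values on IDE-KD arrays 1 and 3 were the least spread out, with SDs of 2.16 and 2.13 across tested rows where the remaining 6 arrays had 2.20 to 2.25, so some results are also given without them. This choice rests on that measure alone. By limma's array weights IDE-KD array 2 was lowest at 0.74, with arrays 3 and 1 at 0.75 and 0.79 and the others at 0.88 to 1.62.

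No member passed the threshold of an adjusted p under 0.05 in limma, as was the case for 0% of all rows tested. At an unadjusted p under 0.05 there were 2 of 46 members (4.35%), both lower in IDE-KD cells, against 4.59% of all rows in either direction, 2.69% higher and 1.91% lower. The members' share in either direction was near that of the whole array, so these 2 genes are given as values and not as results about the set. The same 2 members, the glycylase gene Ttll3 and the stathmin gene Stmn4, were those whose groups did not overlap, where 2.80% of all rows were free of overlap in either direction, 1.39% in the higher and 1.41% in the lower direction. Without IDE-KD replicate 2 the count at an unadjusted p under 0.05 was 7 members: besides Ttll3 and Stmn4 it held Tubgcp3 on the lower side and Ttll6, Tubal3, Ttll2 and Tubb1 on the higher side. In that fit 6.56% of all rows were under 0.05, and the members' share was 15.2%, with no member past the adjusted threshold. This was the highest count of members among the 16 alternative fits. All 7 genes had mean levels under the 95th percentile of the negative-control rows, and Ttll6, Tubal3, Ttll2 and Stmn4 were under the median of those rows. For Ttll6 the array left out read 3.17, far from the 3.83 to 3.96 of the other IDE-KD arrays. In these bulk samples fewer cells of a type and less RNA per cell cannot be told apart.

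**Figure D1:**
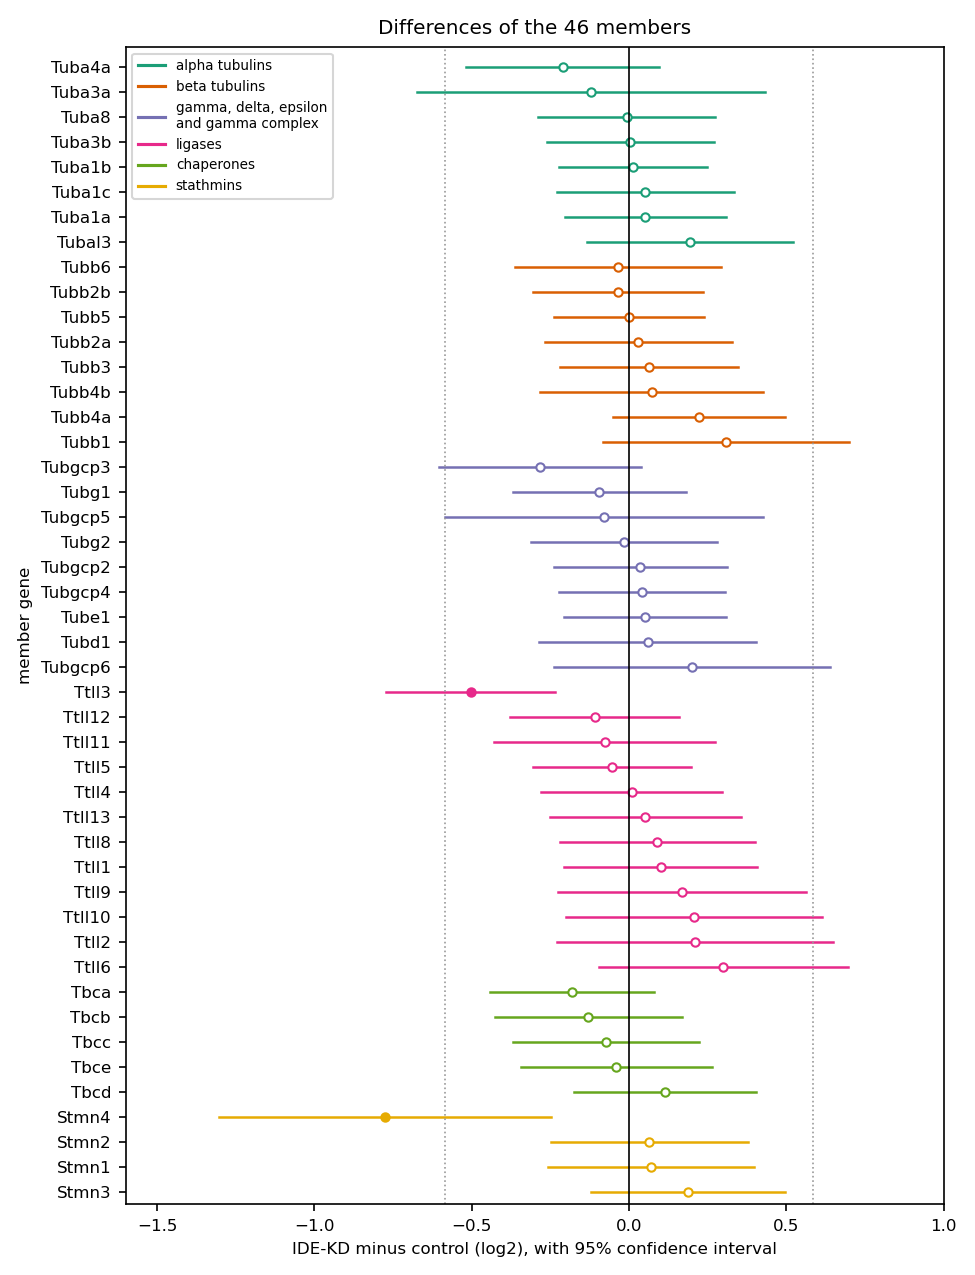
Differences of the 46 member genes between IDE-KD and control cells (log2, horizontal axis) with 95% confidence intervals, coloured by subfamily; filled points mark genes whose 4 IDE-KD and 4 control arrays did not overlap, and dotted lines mark 1.5-fold changes. All intervals except those of Ttll3 and Stmn4 cross 0.

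Differences were small across the set. Of the 46 members, 27 were higher and 19 lower, and the median difference was 0.03, where 52.1% of all rows were higher and their median was 0.0074. The 95% confidence interval excluded a 1.5-fold change for 37 of the members (80.4%) and for 83.6% of all rows, and it excluded a 2-fold change for 45 of 46, Stmn4 being the exception.

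The array carries 5222 negative-control rows, marked as such in their identifiers, whose median was 4.16 and 95th percentile 6.87. Mean levels of 23 of 46 members were above that 95th percentile, against 26.1% of all rows, and 9 members were under the median of the negative controls: Tuba3a, Tubal3, Tubb2b, Tubgcp6, Ttll13, Ttll2, Ttll6, Ttll8 and Stmn4. All 23 bright members had intervals that excluded a 1.5-fold change, against 14 of the 23 dimmer ones (60.9%). Over all rows the shares were 96.3% of bright and 79.1% of dimmer rows. Among all bright rows 59.9% were lower in IDE-KD cells, with a median of -0.03, and among the 23 bright members 10 were lower, with a median of 0.04.

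**Figure D2:**
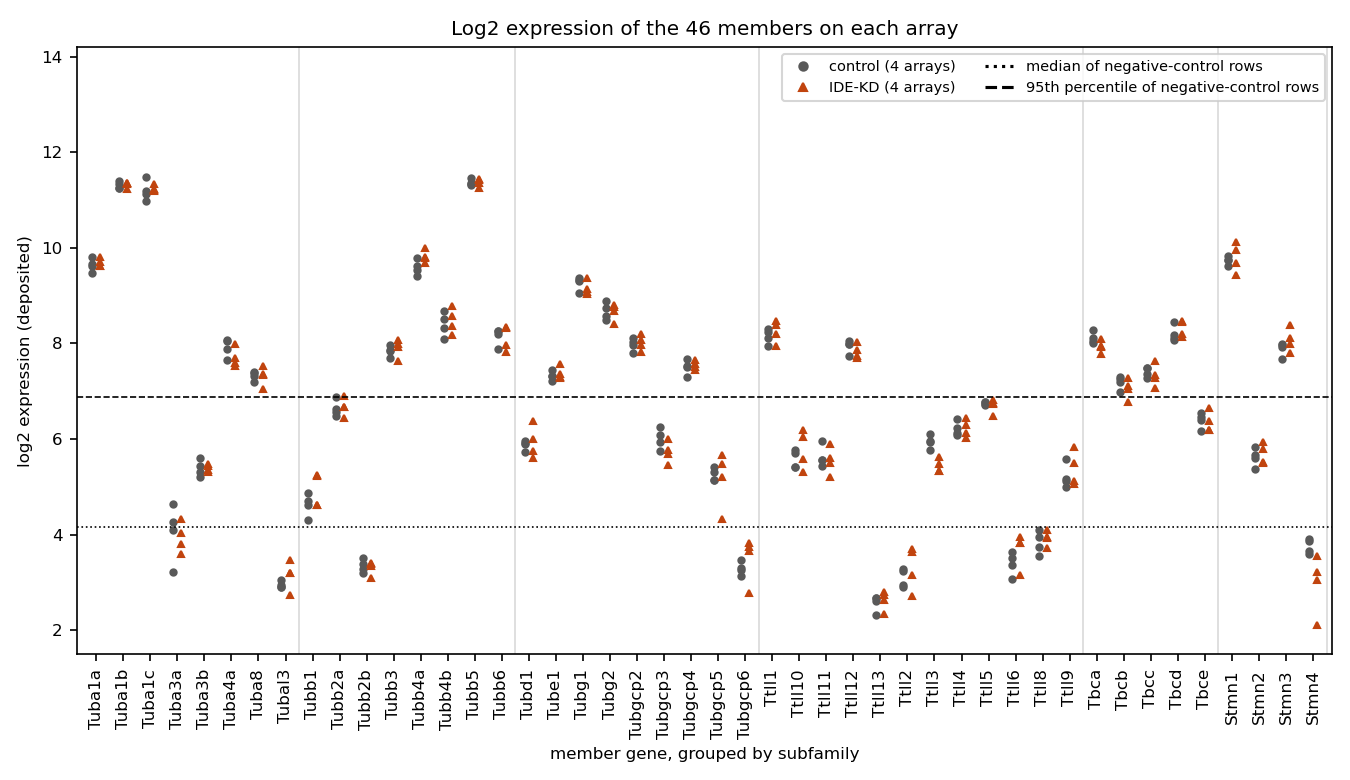
Log2 expression (vertical axis) of each of the 46 member genes on the 4 control arrays (circles) and the 4 IDE-KD arrays (triangles), in subfamily order, with the median (dotted, 4.16) and 95th percentile (dashed, 6.87) of the negative-control rows. The symbols of both groups overlap for every gene except Ttll3 and Stmn4.

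The alpha tubulins are the subunits that carry the tail tyrosine removed and replaced in the detyrosination cycle. Tuba1a, Tuba1b and Tuba1c, whose proteins are nearly the same, lie side by side with no other protein-coding gene between them in the RefSeq annotation of GRCm38.p6. The 250 bases before the starts of Tuba1a and Tuba1b are shown because these neighbours, similar in protein, differ widely in base composition there. Tuba1a and Tuba1b, both on the minus strand, are at chr15:98953502-98953751 and chr15:98934391-98934640 of GRCm38.p6 (RefSeq). Capitals mark matches on either strand to GGGCGG (the GC box), CCAAT (the CCAAT box) and TATAA (the core of a TATA box).
Tuba1a: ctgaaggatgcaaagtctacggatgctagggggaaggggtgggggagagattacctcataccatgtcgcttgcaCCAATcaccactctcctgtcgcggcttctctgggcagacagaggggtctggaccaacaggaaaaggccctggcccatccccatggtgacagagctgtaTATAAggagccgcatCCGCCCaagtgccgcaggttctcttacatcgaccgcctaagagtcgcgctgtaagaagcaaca
Tuba1b: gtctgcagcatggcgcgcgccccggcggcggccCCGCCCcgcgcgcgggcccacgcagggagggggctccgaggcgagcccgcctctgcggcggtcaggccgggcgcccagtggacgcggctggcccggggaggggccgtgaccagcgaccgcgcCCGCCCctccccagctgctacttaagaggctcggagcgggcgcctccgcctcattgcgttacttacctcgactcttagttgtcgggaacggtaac
The Tuba1a window held 1 match to each motif and 11 CpG dinucleotides at 56.8% GC, and the Tuba1b window 2 GC boxes, neither of the other motifs and 35 CpG dinucleotides at 75.6% GC. A match describes the letters of the window and not a bound site.

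None of these 3 neighbouring genes separated the groups. Tuba1b read 11.25, 11.34, 11.39 and 11.26 on the control arrays and 11.35, 11.33, 11.24 and 11.36 on the IDE-KD arrays, a difference of 0.012 (95% confidence interval -0.22 to 0.25). Tuba1a read 9.48, 9.80, 9.62 and 9.67 in control and 9.63, 9.71, 9.63 and 9.82 in IDE-KD cells, a difference of 0.05 (interval -0.20 to 0.31). Tuba1c read 10.97, 11.48, 11.19 and 11.12 in control and 11.19, 11.24, 11.21 and 11.33 in IDE-KD cells, a difference of 0.05 (interval -0.23 to 0.33). All 3 genes overlapped between groups, and each interval excluded a 1.5-fold change in either direction. Probe sequences were not used here, so signal shared between such similar genes cannot be told apart.

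Tuba4a, an alpha tubulin whose gene does not encode the final tyrosine, had the smallest p of its subfamily. It read 7.66, 7.89, 8.05 and 8.08 on the control arrays and 7.99, 7.54, 7.60 and 7.70 on the IDE-KD arrays. IDE-KD arrays 2, 3 and 4 sat at the low end and array 1 among the controls, so the groups overlapped, with a difference of -0.21 (SE 0.14, limma adjusted p = 1.00, exact two-sided permutation p = 0.171, n = 4 a group). Without IDE-KD replicates 1 and 3 the Tuba4a difference was -0.30. For Tuba8 the control mean was 7.32 ± 0.10 and the IDE-KD mean 7.32 ± 0.20 (SD, n = 4). The testis-type genes Tuba3a and Tuba3b and the divergent Tubal3 differed by -0.12 (SE 0.26), 0.0044 (SE 0.12) and 0.19 (SE 0.15), and none of the 3 exceeded the 95th percentile of the negative controls. Without IDE-KD replicates 1 and 3 the Tubal3 difference was 0.0051. Over the 8 alpha tubulins, 5 were higher and 3 lower, and the median difference was 0.0081.

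Beta tubulins carry the exchangeable nucleotide of the dimer, and their isotypes differ mainly in the tail. Tubb5, the broadly expressed isotype, read 11.35, 11.33, 11.32 and 11.46 on control and 11.43, 11.25, 11.41 and 11.36 on IDE-KD arrays. The groups lay on top of each other, with a difference of -0.00075 (interval -0.24 to 0.24). Tubb4b, another broad isotype used in cilia, varied more, with 8.09, 8.68, 8.32 and 8.51 in control and 8.37, 8.58, 8.17 and 8.78 in IDE-KD cells, a difference of 0.07 (SE 0.16), or 0.28 without IDE-KD replicates 1 and 3. Tubb6 differed by -0.04 (SE 0.15), and by 0.18 without IDE-KD replicates 1 and 3.

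Isotypes best known from neurons were measured too. Tubb4a, which had the smallest p among the beta tubulins, read 9.42, 9.53, 9.61 and 9.80 on control and 9.68, 9.99, 9.79 and 9.80 on IDE-KD arrays. Only control array 4 reached the IDE-KD range, and the difference of 0.22 (interval -0.05 to 0.50) had a limma adjusted p of 1.00 and an exact two-sided permutation p of 0.0857. Without IDE-KD replicates 1 and 3 the Tubb4a difference was 0.30. Its unadjusted limma p was 0.101 in the main fit, 0.0354 with trend and robust eBayes and 0.0494 without control replicate 4. No adjusted p was under 0.05. Tubb3, the class III isotype used as a neuronal marker, read 7.69, 7.98, 7.84 and 7.86 in control and 7.917, 7.996, 7.633 and 8.076 in IDE-KD cells, a difference of 0.06 (SE 0.13), or 0.19 without IDE-KD replicates 1 and 3. Tubb2a read 6.62, 6.89, 6.48 and 6.56 against 6.67, 6.67, 6.44 and 6.90, and its neighbour Tubb2b 3.39, 3.28, 3.51 and 3.21 against 3.40, 3.39, 3.36 and 3.10. Neither pair of groups separated, with differences of 0.03 (SE 0.14) and -0.04 (SE 0.12), and Tubb2b was under the median of the negative controls.

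Tubb1, the isotype of megakaryocytes and platelets, gave the highest fitted difference of the 46 genes, 0.31 (SE 0.18, interval -0.08 to 0.70, limma adjusted p = 1.00, exact two-sided permutation p = 0.257, n = 4 a group). It read 4.87, 4.70, 4.63 and 4.30 in control and 5.24, 4.63, 5.23 and 4.62 in IDE-KD cells, so arrays 1 and 3 alone were high and arrays 2 and 4 matched the controls. Without IDE-KD replicates 1 and 3 the difference was 0.0021. The 3 measured megakaryocyte markers (Pf4, Itga2b and Gp9), of which 3 were above the median control row and none above the 95th percentile of the negative controls, did not move as one: Pf4 and Itga2b differed by 0.19 (SE 0.20) and 0.26 (SE 0.15) and Gp9 by -0.28 (SE 0.16). Averaged over these markers, IDE-KD arrays 1 and 3 deviated from the control mean by 0.22 and 0.41, arrays 2 and 4 by -0.19 and -0.22, and their part in the Tubb1 value was not tested. Other dim marker lists were also above 0 on arrays 1 and 3, with averages of 0.28 and 0.23 for multiciliated cells and 0.21 and 0.26 for fibroblasts. The averages were 0.21 and 0.29 for immune, endothelial and exocrine cells, 0.14 and 0.21 for beta, delta, PP and epsilon cells and 0.04 and 0.15 for male germ cells. On array 2 these lists averaged -0.17, 0.20, 0.03, 0.12 and -0.07 in the same order. All rows under the 95th percentile of the negative controls averaged 0.05 and 0.06 on arrays 1 and 3. Over the 8 beta tubulins, 5 were higher and 3 lower; the median was 0.05, or 0.16 without IDE-KD replicates 1 and 3.

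Gamma tubulin and its partners form the ring from which microtubules grow. Tubg1, the main gamma tubulin gene, read 9.05, 9.36, 9.30 and 9.32 in control and 9.14, 9.04, 9.08 and 9.38 in IDE-KD cells, a difference of -0.09 (SE 0.13). Its neighbour Tubg2 differed by -0.016 (SE 0.14). Tubgcp2, a subunit of the gamma tubulin small complex, read 7.81, 8.12, 7.96 and 8.04 against 7.82, 7.97, 8.08 and 8.20. For Tubg1, Tubg2 and Tubgcp2 the groups overlapped along most of their range.

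Tubgcp3, the partner of Tubgcp2 in the small complex, had the smallest p of this subfamily. It read 5.76, 6.25, 5.95 and 6.08 on control and 5.69, 5.99, 5.45 and 5.77 on IDE-KD arrays, a difference of -0.28 (SE 0.15, interval -0.61 to 0.04, limma adjusted p = 1.00, exact two-sided permutation p = 0.143, n = 4 a group). IDE-KD arrays 1 and 3 lay below all controls and arrays 2 and 4 within their range, and without arrays 1 and 3 the difference was -0.13. Of the other Tubgcp genes, Tubgcp4 differed by 0.04 (SE 0.12), Tubgcp5 by -0.08 (SE 0.23) and Tubgcp6 by 0.20 (SE 0.20). Tubgcp5 and Tubgcp6 were the unsteady ones: Tubgcp5 read 4.34 on IDE-KD array 1 and 5.21 to 5.67 on the other IDE-KD arrays, and Tubgcp6 2.78 on array 3 and 3.66 to 3.82 on the others. Without arrays 1 and 3 they differed by 0.32 and 0.48, each with an unadjusted p under 0.05 but not an adjusted one. In that fit 7.9% of all rows had an unadjusted p under 0.05. Tubd1 and Tube1, which encode the delta and epsilon tubulins of centrioles, differed by 0.06 (SE 0.16) and 0.05 (SE 0.12). Over the 9 genes, 5 were higher and 4 lower, and the median difference was 0.04.

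The chaperones pass folding intermediates of alpha tubulin (Tbcb, Tbce) and beta tubulin (Tbca, Tbcd) to a common complex, where Tbcc triggers release of the dimer. Tbca read 8.02, 8.28, 8.11 and 8.06 in control and 7.94, 8.09, 7.78 and 7.92 in IDE-KD cells. All IDE-KD arrays but array 2 were below every control array, and the difference was -0.18 (SE 0.12, limma adjusted p = 1.00, exact two-sided permutation p = 0.0857, n = 4 a group). Tbcb read 6.98, 7.27, 7.20 and 7.31 against 6.77, 7.06, 7.12 and 7.28, a difference of -0.13 (SE 0.14) that was -0.019 without IDE-KD replicates 1 and 3. Tbcc read 7.29, 7.36, 7.48 and 7.49 against 7.28, 7.34, 7.07 and 7.64. Its groups overlapped, and its difference of -0.07 (SE 0.14) was 0.09 without IDE-KD replicates 1 and 3. Tbce read 6.46, 6.54, 6.41 and 6.17 against 6.19, 6.66, 6.20 and 6.38 (difference -0.04, SE 0.14), and Tbcd 8.12, 8.44, 8.07 and 8.17 against 8.19, 8.14, 8.45 and 8.48 (difference 0.11, SE 0.13). Of the 5 chaperones 4 were lower and 1 higher, with a median of -0.07 that became 0.09 without IDE-KD replicates 1 and 3.

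Among the ligases, only Ttll3 had groups that did not overlap. Its product starts glycine chains on tubulin tails, a modification found mainly in cilia and flagella. Ttll3 (probe set TC0600003533.mm.2) read 5.76, 5.95, 5.95 and 6.11 on the control arrays and 5.34, 5.47, 5.33 and 5.62 on the IDE-KD arrays. Every IDE-KD array was below every control array, and IDE-KD array 4 came closest to the controls. The difference of -0.50 (SE 0.12, 95% confidence interval -0.77 to -0.23) had an unadjusted limma p of 0.00145, rank 25 of 22142, and an adjusted p of 1.00. The exact two-sided permutation p was 0.0286, the smallest that 4 against 4 arrays allow. Every row without overlap has this exact p, so it adds nothing to the lack of overlap. The difference stayed between -0.56 and -0.45 when any 1 array was left out and was -0.40 without IDE-KD replicates 1 and 3. The level lay between the median and the 95th percentile of the negative controls in both groups, so no fold is given.

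Because Ttll3 has 2 annotated starts, the 250 bases before each are shown to let them be compared. They are at chr6:113389010-113389259 and chr6:113392213-113392462 of GRCm38.p6, plus strand, from RefSeq, with capitals marking the same 3 motifs.
Ttll3 first start: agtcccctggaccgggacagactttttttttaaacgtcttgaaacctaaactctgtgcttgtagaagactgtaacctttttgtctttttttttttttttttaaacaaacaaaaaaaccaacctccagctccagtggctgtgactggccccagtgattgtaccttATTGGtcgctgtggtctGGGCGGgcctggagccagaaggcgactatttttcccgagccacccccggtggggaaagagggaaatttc
Ttll3 second start: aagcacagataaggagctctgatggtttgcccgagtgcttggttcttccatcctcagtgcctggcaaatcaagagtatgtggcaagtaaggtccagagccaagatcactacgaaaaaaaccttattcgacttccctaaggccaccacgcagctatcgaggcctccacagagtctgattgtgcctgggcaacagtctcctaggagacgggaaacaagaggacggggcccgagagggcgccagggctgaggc
The first window held 1 GC box and 1 CCAAT box and the second none of the 3 motifs. The array gives 1 value for the gene, so the data do not say which start was in use. Promoter windows were found for 37 of the 46 genes, 38 windows in all. Of these, 21 (55.3%) had over 50% GC and an observed to expected CpG ratio over 0.6, against 30.8% of all 32851 windows in the table, which include non-coding genes. A GC box was found in 42.1% of the members' windows and 32.7% of all windows, a CCAAT box in 42.1% and 33.8%, and a TATAA match in 15.8% and 22.8%. Split by signal, bright and dim members had CpG-rich windows in 55.6% and 55.0% and a GC box in 55.6% and 30.0% of 18 and 20 windows, which is a description with no test.

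The other glycylase genes gave differences above 0 with intervals that included 0. Ttll8, also a chain-starting glycylase gene, differed by 0.09 (SE 0.14) and was under the median of the negative controls, and Ttll10, which lengthens glycine chains, differed by 0.21 (SE 0.19) and by -0.13 without IDE-KD replicates 1 and 3. Ttll1, the catalytic subunit of a polyglutamylase complex, read 7.95, 8.29, 8.23 and 8.11 in control and 7.94, 8.46, 8.20 and 8.38 in IDE-KD cells. Ttll12, a family member without an established ligase activity, read 7.742, 8.046, 7.980 and 7.998 against 8.02, 7.74, 7.86 and 7.71. Both genes overlapped between groups, with differences of 0.10 (SE 0.14) and -0.11 (SE 0.12), and they were the only ligases above the 95th percentile of the negative controls. Without IDE-KD replicates 1 and 3 the differences were 0.28 and -0.22.

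Of the glutamylase genes, Ttll4 differed by 0.0080 (SE 0.13), Ttll5 by -0.05 (SE 0.12), Ttll9 by 0.17 (SE 0.18), Ttll11 by -0.08 (SE 0.16) and Ttll13 by 0.05 (SE 0.14). Ttll6, a glutamylase of cilia, read 3.52, 3.36, 3.65 and 3.07 in control and 3.83, 3.17, 3.96 and 3.83 in IDE-KD cells, a difference of 0.30 (SE 0.18), or 0.099 without IDE-KD replicates 1 and 3, at a level under the median of the negative controls. Ttll2 differed by 0.21 (SE 0.20). Over the 12 ligases, 8 were higher and 4 lower, and the median was 0.07. The 8 ligases that remained after rows at or below the median control row were left out had a median of -0.023.

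Stathmins bind tubulin dimers and lose that activity when phosphorylated; Stmn1 is cytosolic and Stmn2, Stmn3 and Stmn4 are membrane-attached forms best known from neurons. Stmn4 (probe set TC1400000946.mm.2) read 3.59, 3.66, 3.87 and 3.92 on control and 3.22, 3.04, 2.11 and 3.56 on IDE-KD arrays. Every IDE-KD array was below every control array, but array 4 came close to the lowest control and array 3 lay far below the rest. The fitted difference of -0.78 (SE 0.24, 95% confidence interval -1.30 to -0.25, unadjusted limma p = 0.0074, adjusted p = 1.00, exact two-sided permutation p = 0.0286 as for every row without overlap, n = 4 a group) rested in part on array 3. Without IDE-KD replicate 3 it was -0.48, and without IDE-KD replicates 1 and 3 it was -0.46. Both groups were under the median of the negative controls, so no fold is given for Stmn4.

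The other stathmin genes had differences above 0, and none separated the groups. Stmn1 read 9.75, 9.83, 9.62 and 9.74 in control and 9.44, 10.13, 9.69 and 9.96 in IDE-KD cells. Its IDE-KD arrays spread on both sides of the controls, with an SD of 0.31 where the controls had 0.09 (n = 4 a group) and a difference of 0.07 (SE 0.15), or 0.31 without IDE-KD replicates 1 and 3. Stmn2 read 5.84, 5.67, 5.37 and 5.61 against 5.94, 5.79, 5.50 and 5.51 (difference 0.06, SE 0.14). Stmn3 read 7.99, 7.97, 7.67 and 7.92 against 7.807, 8.383, 8.112 and 7.997 (difference 0.19, SE 0.14, or 0.30 without IDE-KD replicates 1 and 3). In both cases the groups overlapped. The 8 neuron markers had a mean deviation of -0.07 to 0.09 on control arrays and -0.03 to 0.13 on IDE-KD arrays.

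**Figure D3:**
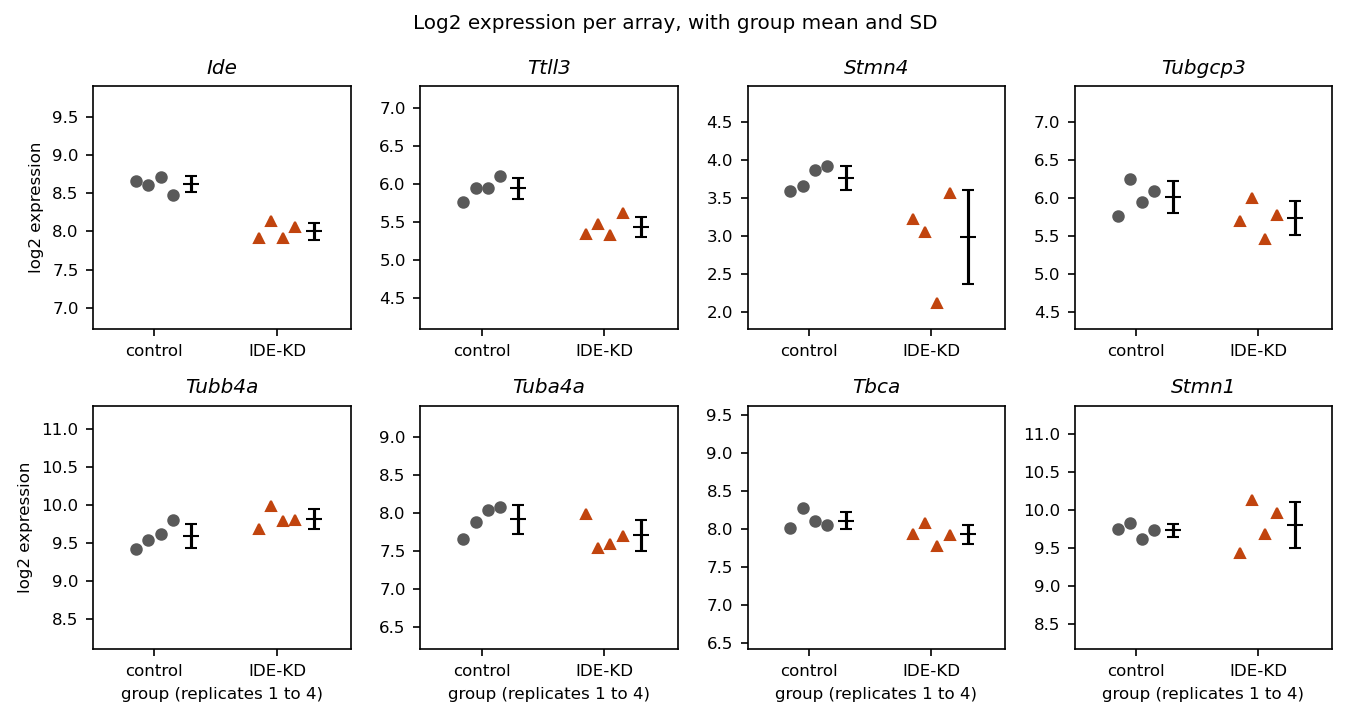
Log2 expression (vertical axis, each panel spanning 3.2 units) of Ide and 7 member genes on the 4 control (circles) and 4 IDE-KD arrays (triangles), replicates 1 to 4 from left to right, with group mean and SD beside them. Ide, Ttll3 and Stmn4 show no overlap; the other 5 genes do overlap, and Stmn4 has its lowest value, 2.11, on IDE-KD array 3.

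Spread within the IDE-KD group was often larger than the difference between the groups. The SD was larger among IDE-KD than among control arrays for 37 of the 46 members (80.4%), against 61.8% of all rows; alpha tubulins were the exception, with 3 of 8. IDE-KD array 3 held the lowest of the 8 values for 14 members (30.4%), against 16.4% of all rows. The chaperones averaged -0.19 and -0.14 on IDE-KD arrays 1 and 3 relative to the control mean, and -0.0037 and 0.08 on arrays 2 and 4. The 5 Tubgcp genes averaged -0.21 and -0.17 on arrays 1 and 3 and 0.18 and 0.13 on arrays 2 and 4. Averages over all bright rows of the array were -0.07 and -0.11 on arrays 1 and 3 and 0.04 and 0.03 on arrays 2 and 4. Over all dimmer rows they were 0.05 and 0.06 on arrays 1 and 3 and -0.0062 and 0.0071 on arrays 2 and 4. Only 2 of the 5 Tubgcp genes were bright. On arrays 1 and 3 Tubgcp2 read 7.82 and 8.08 (control mean 7.98) and Tubgcp4 7.51 and 7.65 (control mean 7.50). The part of these array-wide patterns in the members' values was not tested.

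**Figure D4:**
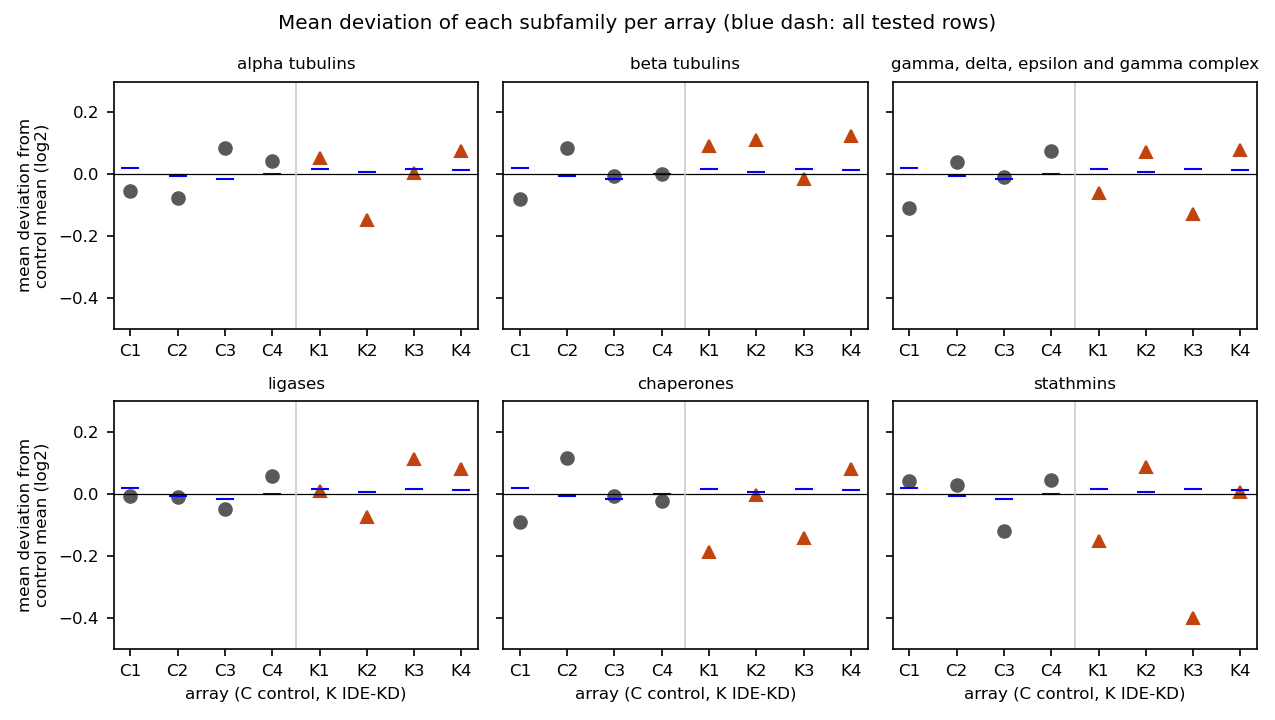
Mean deviation from the control mean (log2, vertical axis) of each of the 6 subfamilies on control arrays C1 to C4 (circles) and IDE-KD arrays K1 to K4 (triangles), with the mean over all tested rows as blue dashes. The chaperones are low on K1 and K3, and the stathmin mean of -0.40 on K3 comes from Stmn4, without which it is 0.017.

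Partner genes of the same machinery were taken from 9 lists, of which 86 of 100 entries were measured, and 0 passed the adjusted threshold in either direction in limma. At an unadjusted p under 0.05 there was 1 partner gene of 86, where 4.59% of all rows were, and the groups did not overlap for 3, where 2.80% of all rows were free of overlap. The first share was below and the second near that of the whole array, so the 3 genes are given as values and not as results about the lists. The gene with the unadjusted p was Clip1, whose product binds growing plus ends, at 7.83, 7.75, 7.90 and 7.94 in control and 7.72, 7.71, 7.43 and 7.39 in IDE-KD cells, a difference of -0.29 (SE 0.12). The other genes without overlap were Cdk5rap2, which helps anchor gamma tubulin at centrosomes, with a difference of -0.18 (SE 0.11), and Tbcel, a relative of Tbce that destabilises tubulin, with -0.26 (SE 0.13). All 3 were lower in IDE-KD cells. Over the 86 partner genes 37 were higher and 49 lower. Their median was -0.02, and it was 0.05 without IDE-KD replicates 1 and 3.

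By list, the median difference was -0.07 for the tyrosination cycle (3 measured; Ttl, the tyrosine ligase, -0.11, SE 0.12) and -0.06 for glutamate removal and its cofactors (9 measured; Tpgs2 0.23, SE 0.15). It was 0.15 for the acetylation cycle (3 measured), where the deacetylase genes Sirt2 and Hdac6 had 0.16 (SE 0.12) and -0.14 (SE 0.15) and the acetylase gene Atat1 0.15 (SE 0.14). Lattice-binding proteins had a median of 0.0017 (17 measured; Map4 -0.29, SE 0.14), plus-end proteins -0.014 (13 measured) and minus-end and nucleation factors -0.03 (14 measured). Severing enzymes had a median of -0.05 (6 measured; Fignl2 0.24, SE 0.13), CCT, prefoldin and other folding partners 0.016 (18 measured) and the factors of tubulin mRNA autoregulation -0.02 (3 measured; Ttc5, which recognises nascent tubulin, 0.24, SE 0.14). The folding partners were, as the chaperones, low on IDE-KD arrays 1 and 3, with averages of -0.27 and -0.17 there and of 0.22 and 0.13 on arrays 2 and 4.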

How the data were processed

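Total RNA of 4 control and 4 IDE-KD samples was hybridised to Clariom S arrays, 1 colour. The authors deposited log2 expression values; RMA, oligo and limma appear in the submitters' processing notes with neither version nor role, and no source used here gives the probe sets' genome build. RMA equalises distributions, so a global change in RNA would not be seen, and it can compress low signals. Values were used as deposited. Of 29129 rows, 22142 transcript clusters were tested, and 6923 control rows and 64 unplaced rows were not. The platform table gave 1 symbol to 19527 tested rows, several to 0 and none to 2615.

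The groups were compared under R 4.3.3 with limma 3.58.1, using lmFit and eBayes on group alone. Adjustment of p-values was by Benjamini and Hochberg's method over all tested rows. On simulated data, with normal errors drawn independently for each row, the fit called 45.6% of 1.5-fold and 97.6% of 2-fold changes. Those data held no array-wide patterns, so the shares cannot be carried over to these arrays. The number of arrays limits precision: the median half-width of the 95% intervals was 0.32. Members and lists were chosen with earlier results of these data known. Named with all array values were Ide, Gcg, a fixed set of members covering each subfamily, members without overlap and the smallest p of each subfamily. Of 157 entries of the partner and marker lists, 22 were not analysed here. Same-numbered arrays of the 2 groups had deviations correlated at 0.0876 to 0.129, and differently numbered arrays at -0.225 to 0.209. These values do not settle whether the numbers pair the arrays. The main fit did not pair them, and a fit with the replicate as a block is given below.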

Additional observations from a re-analysis of the deposited data

Results flagged for a closer look

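In 4 of 96 groups of 4 arrays (46 members, Ide and Gcg, in 2 groups each), 1 array lay far from the others by Dixon's criterion, where chance marks about 1 in 20 groups. Tubb2b read 3.10 on IDE-KD array 4 and 3.36 to 3.40 on the other IDE-KD arrays. Tubgcp6 read 2.78 on IDE-KD array 3 and 3.66 to 3.82 on the others. Ttll6 read 3.17 on IDE-KD array 2 and 3.83 to 3.96 on the others. These 3 genes were under the median of the negative controls. Tubb6, which was bright, read 7.88 on control array 1 and 8.21 to 8.27 on the other control arrays.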

How the results depend on the processing

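No member or partner gene passed the adjusted threshold in limma under any of the 16 alternatives, and the smallest adjusted p of a member was 0.555 (Tubgcp6 without IDE-KD replicates 1 and 3). Members at an unadjusted p under 0.05 numbered 1 with dim rows left out, which removed Stmn4, 5 without IDE-KD replicates 1 and 3, and 2 to 7 when 1 array was left out. Of all rows tested, 4.14%, 7.9% and 3.56% to 6.56% were under 0.05 in the same fits. Members without overlap numbered 1 after cyclic loess and 1 with dim rows left out. Without IDE-KD replicates 1 and 3, the median difference was 0.16 for beta tubulins, 0.087 for chaperones and 0.047 for all partner genes; with dim rows left out it was -0.023 for ligases. With the replicate block, the count at an unadjusted p under 0.05 was 3, Tubgcp3 being the addition, and no adjusted call changed. Same-numbered arrays correlated at 0.102, 0.129, 0.0876 and 0.0985, and control replicate 2 correlated best with IDE-KD replicate 4 (0.209), so not every array was closest to its own number.

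Of the 46 members, 19 kept their sign under every alternative and 12 changed it only when 1 array was left out. The others changed sign as follows, in log2 units, and the cause was not tested. With array medians subtracted the values were Tuba1b -0.0017, Tuba3b -0.0091, Ttll4 -0.0055. After quantile normalization they were Tuba3b -0.011, Tuba8 0.015, Tubb5 0.0093, Tubg2 0.0086, after cyclic loess Tuba3b -0.0022, Tuba8 0.022, Tubb5 0.011, Tubg2 0.010, and with array weights Tuba3b -0.024, Tuba8 0.0056, Tubb5 0.0029, Tubg2 0.014, Ttll4 -0.0018. Without IDE-KD replicates 1 and 3 they were Tuba3b -0.010, Tubb6 0.18, Tubd1 -0.19, Tubg2 0.044, Tubgcp5 0.32, Ttll10 -0.13, Ttll11 0.065, Ttll13 -0.041, Ttll5 0.026, Tbcc 0.087, Tbce 0.13. When 1 array was left out the ranges were Tuba1a -0.0032 to 0.11, Tuba1b -0.0074 to 0.038, Tuba1c -0.021 to 0.15, Tuba3a -0.40 to 0.071, Tuba3b -0.055 to 0.076, Tuba8 -0.078 to 0.085, Tubb2a -0.048 to 0.11, Tubb2b -0.081 to 0.036, Tubb4b -0.032 to 0.17, Tubb5 -0.024 to 0.036, Tubb6 -0.13 to 0.061, Tubd1 -0.088 to 0.16, Tube1 -0.014 to 0.093, Tubg2 -0.079 to 0.072, Tubgcp2 -0.023 to 0.10, Tubgcp4 -0.029 to 0.098, Tubgcp5 -0.25 to 0.20, Ttll11 -0.19 to 0.036, Ttll13 -0.035 to 0.15, Ttll4 -0.067 to 0.077, Ttll5 -0.092 to 0.016, Ttll8 -0.0045 to 0.18, Tbcc -0.18 to 0.015, Tbce -0.14 to 0.016, Stmn1 -0.040 to 0.19, Stmn2 -0.020 to 0.14.

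The array count and low signal limit precision: 9 members were under the median of the negative controls, where RMA can compress differences. Compression was not tested. The median within-group SD was 0.23 over all tested rows under the 95th percentile of the negative controls and 0.15 over those above it.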
